A study of Mus musculus with 6 samples.

Results

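The IGF ligand genes Igf1 and Igf2 and the IGF binding protein genes Igfbp2, Igfbp3 and Igfbp5 were examined in bone of growth hormone (GH)-deficient mice after GH. Every probe row annotated with 1 of these 5 symbols and no other was taken, which gave 8 of 21446 rows (5 of 8973 named genes). Igf1 had probes 1491, 9041 and 9875, Igf2 had probes 1525 and 6729, Igfbp2 had probe 12567, Igfbp3 had probe 16408 and Igfbp5 had probe 16319. All 8 rows held values and all 8 met the requirement of at least 2 arrays with a value at each time.

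Animals at 4 weeks of age were C57BL/6J-Ghrhr<lit> (lit/lit) in every group, so GH and PBS animals alike lacked a working receptor for GH-releasing hormone, and no wild-type mice were compared. They received a single subcutaneous injection of GH (4 mg/kg) or of phosphate-buffered saline (PBS), and bone RNA was taken 24 or 6 hours later. Each of 6 two-colour arrays set GH bone (Cy5) against PBS bone (Cy3), each from RNA of 2 animals, with replicates 4, 5 and 6 at 24 hours and replicates 1, 2 and 3 at 6 hours. All values are log2 ratios of GH over PBS. That direction is likely from the dyes and the channel order in the labels, but the value table does not state it. The dyes were never swapped, so a dye effect of a probe adds to its ratio and cannot be told apart from GH.

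IGF-1 and IGF-2 are small secreted growth factors that act through the type 1 IGF receptor. GH raises Igf1 transcription through the kinase JAK2 and the transcription factor STAT5, and both circulating and locally made IGF-1 promote the growth of bone. The IGF binding proteins hold the ligands in serum and matrix and set how much of them reaches the receptor. In blood, most IGF-1 travels bound to IGFBP-3, and IGFBP-5 binds bone matrix and is abundant in bone.

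The promoters of 3 of the members that passed the test below are shown because their rows moved in unlike directions. Whether GH acts through these windows was not tested. Igf2 also passed, on probe 6729, and its windows are not printed. RefSeq windows of assembly GRCm38.p6 were found for 5 of the 5 genes, and the 250 bases before an annotated start are given 5′ to 3′ on the strand of the gene. The Igf1 window (chr10:87860861-87861110, plus strand), the Igfbp3 window (chr11:7213924-7214173, minus strand) and the first of 2 Igfbp2 windows (chr1:72824230-72824479, plus strand) follow. The Igf1 and Igfbp3 windows lie within the annotated span of their genes, which begins further upstream. Capitals mark a match on either strand to the STAT5-type site TTCNNNGAA, the TATA box TATAAA, the GC box GGGCGG or the CCAAT box.
Igf1: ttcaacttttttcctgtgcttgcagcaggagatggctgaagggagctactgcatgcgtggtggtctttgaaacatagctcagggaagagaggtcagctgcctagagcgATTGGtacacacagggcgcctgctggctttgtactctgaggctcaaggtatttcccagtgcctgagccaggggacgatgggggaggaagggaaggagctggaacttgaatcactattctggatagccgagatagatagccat
Igfbp3: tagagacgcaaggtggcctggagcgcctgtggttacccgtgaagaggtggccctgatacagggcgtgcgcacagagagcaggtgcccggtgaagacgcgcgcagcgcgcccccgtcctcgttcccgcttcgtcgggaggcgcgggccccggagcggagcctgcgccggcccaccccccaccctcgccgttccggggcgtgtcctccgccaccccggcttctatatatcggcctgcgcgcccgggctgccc
Igfbp2: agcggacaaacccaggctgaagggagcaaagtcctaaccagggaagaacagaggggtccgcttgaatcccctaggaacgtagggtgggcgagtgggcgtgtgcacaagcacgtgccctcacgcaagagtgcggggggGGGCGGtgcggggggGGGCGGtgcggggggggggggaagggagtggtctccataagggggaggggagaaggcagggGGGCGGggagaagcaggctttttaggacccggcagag
The Igf1 window held 1 CCAAT match, on the opposite strand and starting 142 bases before the start, and no other match. The Igfbp3 window held none of the 4 motifs and was 73.2% G or C, against 52.8% in Igf1 and 67.2% in Igfbp2. The Igfbp2 window held 3 GC boxes, beginning 113, 98 and 37 bases before the start, and the second Igfbp2 window held none of the 4 motifs. Of the 4 Igf2 windows, the third held 1 GC box, the fourth held 2 GC boxes and 1 CCAAT match, and the others held no match. The STAT5-type letters were in no window of the 5 genes, and 7.02% of all 32851 windows of this length held them. The TATA, GC and CCAAT letters were in 12.4%, 32.7% and 33.8% of those windows. These matches describe the letters of the windows, and the arrays measured no binding.

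Igf1 gave unlike answers on its 3 probes. On probe 9041 the log2 ratio was 0.99, 1.48 and 1.12 on replicates 4, 5 and 6 at 24 hours, against 1.50, 1.64 and 0.99 on replicates 1, 2 and 3 at 6 hours. All 6 arrays were above 0, the 2 times overlapped, and the row stood at percentile 90.7 or higher among the rows of every array. By limma this row rose 2.29-fold at 24 hours (log2 ratio 1.19 ± 0.17, SE, n = 3 arrays, adjusted p = 0.0123) and 2.60-fold at 6 hours (1.38 ± 0.17, n = 3, adjusted p = 0.0303). Over both times it rose 2.44-fold (1.28 ± 0.12, n = 6, adjusted p = 0.00263).

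On probe 1491 of Igf1 the log2 ratio was -0.76, -0.30 and -0.84 at 24 hours, against 0.08, -0.15 and -1.0 at 6 hours. Replicate 1 was the only array above 0, and the times overlapped. The limma means were -0.63 ± 0.23 at 24 hours (adjusted p = 0.0905), -0.36 ± 0.23 at 6 hours (adjusted p = 0.357) and -0.49 ± 0.16 over both (adjusted p = 0.0548), and none passed. On probe 9875 the log2 ratio was -0.23, 0 and -1.56 at 24 hours, against 0.73, 0.23 and -0.47 at 6 hours. Its arrays lay on both sides of 0 and ranged most widely of the 8 rows, and its means of -0.60 ± 0.35 at 24 hours (adjusted p = 0.238) and 0.16 ± 0.35 at 6 hours (adjusted p = 0.791) did not pass.

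Igf2 is an imprinted growth factor gene expressed mainly before birth, and it too gave unlike ratios on its probes. On probe 6729 the log2 ratio was 1.29, 0.91 and 0.82 at 24 hours, against 0.53, 0.89 and 1.25 at 6 hours. All 6 arrays were above 0 and the times overlapped. This row rose 2.01-fold at 24 hours (1.00 ± 0.17, SE, n = 3, adjusted p = 0.0179 by limma) and 1.93-fold over both times (0.95 ± 0.12, n = 6, adjusted p = 0.00493). At 6 hours its mean of 0.89 ± 0.17 missed the threshold (adjusted p = 0.0508). On probe 1525 the log2 ratio was 0.36, 0.23 and 0.67 at 24 hours, against -0.30, 0.04 and 0.10 at 6 hours. Here the times did not overlap, but neither mean passed (0.42 ± 0.14 at 24 hours, adjusted p = 0.0817, and -0.05 ± 0.14 at 6 hours, adjusted p = 0.831).

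**Figure D1:**
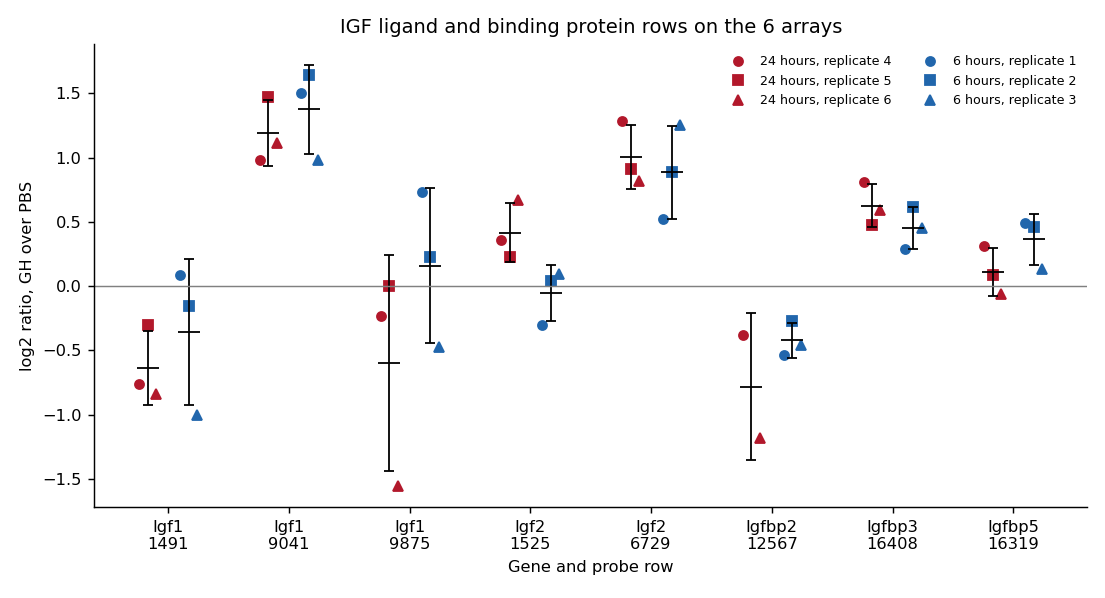
Log2 ratio of GH over PBS (vertical axis) for each of the 8 probe rows (horizontal axis), with 24-hour arrays in red left of 6-hour arrays in blue; each symbol is 1 array, and the black bars give the mean and SD of 3 arrays (2 for Igfbp2 at 24 hours). Igf1 probe 9041, Igf2 probe 6729 and Igfbp3 lie above 0 on all 6 arrays, and Igfbp2 lies below 0 on all 5 arrays with a value.

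The binding protein gene Igfbp3 had log2 ratios of 0.81, 0.48 and 0.59 at 24 hours, against 0.29, 0.61 and 0.45 at 6 hours. All 6 arrays were above 0 and the times overlapped, and the row spread less over the arrays than any Igf1 row did. It rose 1.54-fold at 24 hours (0.63 ± 0.13, SE, n = 3, adjusted p = 0.0237 by limma) and 1.45-fold over both times (0.54 ± 0.09, n = 6, adjusted p = 0.00872). The 6-hour mean of 0.45 ± 0.13 did not pass (adjusted p = 0.0964).

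Igfbp2, whose product binds both ligands, was the only member with every value below 0. Its log2 ratio was -0.38 and -1.18 on replicates 4 and 6 at 24 hours, with no value on replicate 5, against -0.54, -0.27 and -0.45 at 6 hours. The limma means were -0.78 ± 0.23 at 24 hours (n = 2, adjusted p = 0.0632) and -0.42 ± 0.19 at 6 hours (n = 3, adjusted p = 0.223). Over both times the row fell by 0.60 on the log2 scale, or 1.52-fold (SE 0.15, n = 5, adjusted p = 0.0299).

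Igfbp5 had log2 ratios of 0.31, 0.08 and -0.06 at 24 hours, against 0.50, 0.46 and 0.14 at 6 hours. Replicate 6 was the only array below 0, and the times overlapped. The means were 0.11 ± 0.13 at 24 hours (adjusted p = 0.559), 0.37 ± 0.13 at 6 hours (adjusted p = 0.152) and 0.24 ± 0.10 over both (adjusted p = 0.0926), and none passed. Igfbp2 and Igfbp5 are direct neighbours among the protein-coding genes of chromosome 1, and their means over both times had opposite signs.

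In counts, 3 of the 8 rows rose and none fell at 24 hours, where 12.4% of all 19326 rows tested rose and 8.87% fell (21.3% in all). At 6 hours 1 row rose and none fell, where 2.75% of all rows rose and 0.636% fell (3.38% in all). Over all rows at 6 hours that was 531 higher and 123 lower, against 1544 higher and 688 lower after quantile normalization. Over both times 3 rows rose and 1 fell, where 19.2% of all rows rose and 16.3% fell (35.5% in all). The median log2 ratio of the 8 rows was 0.26 at 24 hours and 0.26 at 6 hours, and that of all rows tested was -0.00012 at 24 hours and -0.020 at 6 hours. With 8 rows these counts are small, and they describe the rows only.

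Several of these calls were lost when 1 array was left out, which also left fewer arrays for the error. Without replicate 4 the 24-hour means of Igf2 probe 6729 (0.86, adjusted p = 0.0735) and Igfbp3 (0.53, adjusted p = 0.0988) missed the threshold, and without replicate 6 so did those 2 rows (1.10 with adjusted p = 0.0726, and 0.64 with adjusted p = 0.102) and Igf1 probe 9041 (1.23, adjusted p = 0.0682). At 6 hours Igf1 probe 9041 missed it without replicate 2 (1.24, adjusted p = 0.208), 3 (1.57, 0.138), 4 (1.38, 0.0561) or 6 (1.38, 0.0523). Replicates 4 and 6 do not enter the 6-hour mean, so only its error and the adjustment changed there. Over both times Igf1 probe 9041 passed in every limma alternative that fitted it as a row of its own, with adjusted p of 0.000987 to 0.0492. The fall of Igfbp2 missed the threshold without replicate 1 (-0.57, adjusted p = 0.0562), 2 (-0.64, 0.0768) or 3 (-0.59, 0.0962), and was not tested without replicate 4 or 6, when 1 array was left at 24 hours for this row. An exact sign-flip permutation of the arrays, two-sided, gave p = 0.0312 for Igf1 probe 9041, Igf2 probe 6729 and Igfbp3, the smallest that 6 arrays allow, or 0.0833 adjusted over the 8 rows.

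Scan files of replicates 4 and 6 carried another name prefix in the labels than those of the other 4 arrays. With that prefix as a covariate the 24-hour ratio rests on replicate 5 alone, and Igf1 probe 9041 (1.48, adjusted p = 0.126), Igf2 probe 6729 (0.91, adjusted p = 0.303) and Igfbp3 (0.48, adjusted p = 0.460) all stayed above 0 without passing. Over both times Igf1 probe 9041 passed with the covariate, and Igf2 probe 6729 (0.90, adjusted p = 0.0509) and Igfbp3 (0.46, adjusted p = 0.0993) did not. Within the prefix that holds both times, with replicate 5 against replicates 1, 2 and 3, the values over both times were the same 0.90 (adjusted p = 0.0746) and 0.46 (adjusted p = 0.130). Igfbp2 has no value on replicate 5 and was not tested with the prefix.

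Probes of the same gene were then set against each other within each array, which removes any shift of the whole array. Over both times probe 9041 of Igf1 exceeded probe 1491 by 1.78 ± 0.15 (SE, n = 6 arrays, adjusted p = 0.00386 by limma over 3416 same-gene pairs), with differences of 1.75, 1.78 and 1.95 at 24 hours and 1.42, 1.79 and 1.99 at 6 hours. Probe 9875 lay below probe 9041 on all 6 arrays (difference -1.50 ± 0.23, adjusted p = 0.00619). Probes 9875 and 1491 differed by 0.28 ± 0.20 (adjusted p = 0.292), which did not pass. In Igf2, probe 6729 exceeded probe 1525 by 0.77 ± 0.16 (adjusted p = 0.0127) and on all 6 arrays, by 0.15 on replicate 6 and by 0.68 to 1.15 on the others. Without replicate 3 the Igf2 pair missed the threshold (0.71, adjusted p = 0.0541). It also missed with the scan prefix as a covariate (0.81, adjusted p = 0.0915) and within the prefix (adjusted p = 0.0950). The difference between Igf1 probes 9041 and 1491 passed with the covariate (1.76, adjusted p = 0.0400) and missed within the prefix (adjusted p = 0.0608), and that between probes 9875 and 9041 missed with both (adjusted p = 0.0646 and 0.0608).

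In all, 3 of 4 pairs differed, where 37.4% of all same-gene pairs did. The Igf1 pairs share the 3 Igf1 probes, and both that passed include probe 9041, so they are not separate results. The median size of the difference was 0.49 over all pairs. A difference as large as that between Igf1 probes 9041 and 1491 was seen in 3.54% of pairs, and one as large as that between the Igf2 probes in 32.0%. Averaged over its 3 probes, Igf1 had -0.01 ± 0.23 at 24 hours (adjusted p = 0.972) and 0.39 ± 0.23 at 6 hours (adjusted p = 0.313), so averaging ended the Igf1 call. The Igf1 rise was measured on probe 9041 alone, and which transcript each probe detects was not tested.

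The Igf1 probes differed in the sign and size of their mean over both times. It was 1.28 on probe 9041, which passed, and -0.49 on probe 1491 and -0.22 on probe 9875, which did not. Over the arrays their values had positive r, with none past the threshold after adjustment. Probe 9041 and probe 1491 correlated over the 6 arrays at r = 0.917 (exact permutation p = 0.0444, adjusted p = 0.0889 over 4 pairs) and rho = 0.841 (exact p = 0.0444, adjusted 0.0889). Probe 9875 and probe 1491 correlated at r = 0.798 (exact permutation p = 0.0361, adjusted 0.0889) and rho = 0.943 (exact p = 0.0167, adjusted 0.0667). Probes 9875 and 9041 had r = 0.635 (exact permutation p = 0.169, adjusted 0.226) and rho = 0.754 (exact p = 0.106, adjusted 0.141). Without the 2 arrays farthest from the median of the first-named probe, r was 0.905, 0.984 and 0.938. The Igf2 probes had r = 0.388 (exact permutation p = 0.436, adjusted 0.436) and rho = 0.371 (exact p = 0.497, adjusted 0.497), and r = -0.54 without 2 arrays. No adjusted p passed, the rows share their arrays, and each time or scan prefix holds too few arrays for a value of its own.

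**Figure D2:**
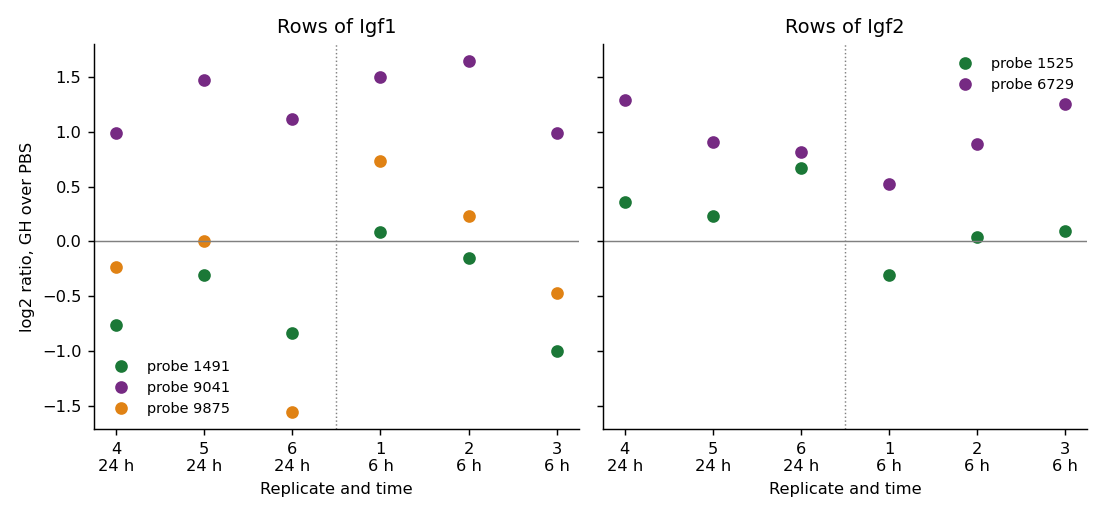
Log2 ratio of GH over PBS (vertical axis) on each array (horizontal axis, 24-hour arrays left of the dotted line and 6-hour arrays right of it) for the 3 probes of Igf1 and the 2 probes of Igf2. Igf1 probe 9041 lies above probe 1491 on all 6 arrays, by 1.42 to 1.99, and Igf2 probe 6729 lies above probe 1525 on all 6.

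Whether the members moved further by 24 hours was tested as the difference of the time means. None of the 8 rows passed, and 0% of all 19326 rows did by limma, with 585 rows at an unadjusted p under 0.05 and none of the 8 among them. Igf2 probe 1525 came nearest, with 0.42 at 24 hours and -0.05 at 6 hours (difference 0.47 ± 0.20, adjusted p = 0.980, 95% interval -0.018 to 0.96). It was also the only 1 of the 8 rows whose times did not overlap, where 9.65% of all rows did not. For Igf1 probe 9041 the difference was -0.18 ± 0.24 (interval -0.77 to 0.40), for Igf2 probe 6729 it was 0.12 ± 0.25 (-0.48 to 0.71) and for Igfbp3 it was 0.17 ± 0.18 (-0.26 to 0.61). These intervals leave room for changes of up to 0.61 to 0.77 in size between the times. Igfbp2 (-0.36 ± 0.29), Igfbp5 (-0.25 ± 0.19) and Igf1 probes 1491 (-0.28 ± 0.32) and 9875 (-0.76 ± 0.49) had lower means at 24 hours, with all 4 intervals crossing 0.

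**Figure D3:**
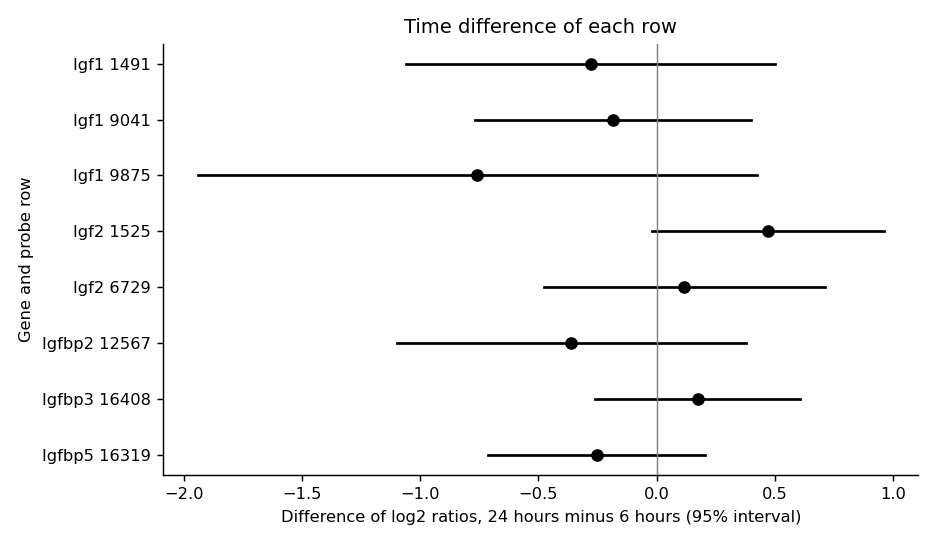
Difference of log2 ratios, 24 hours minus 6 hours (horizontal axis), for each of the 8 rows (vertical axis), with points for the limma estimate and lines for its 95% interval. Every interval crosses 0, and that of Igf2 probe 1525 does so least, from -0.018 to 0.96.

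Of 27 other genes of the IGF system listed for comparison, 10 had a row of their own (16 rows). At 24 hours 1 of these rows rose, at 6 hours 1 rose, and over both times 3 rose and 1 fell. Over all rows tested, 21.3% were called at 24 hours, 3.38% at 6 hours and 35.5% over both times. The median log2 ratio of the 16 rows over both times was 0.03. The largest rise was that of Igf2bp1, whose product binds Igf2 mRNA and other transcripts. Its probe 8654 had log2 ratios of 1.66, 1.25 and 1.14 at 24 hours, against 0.92, 1.03 and 1.28 at 6 hours, all above 0. It rose 2.55-fold at 24 hours (1.35 ± 0.15, adjusted p = 0.00867 by limma) and 2.11-fold at 6 hours (1.07 ± 0.15, adjusted p = 0.0319). Probe 12081 of Igf2bp1 also rose over both times (0.74 ± 0.17, n = 5, adjusted p = 0.0254), while probe 17329 had 0.02 ± 0.12 (n = 4, adjusted p = 0.887).

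Among receptors and their adaptors, no row of the type 1 IGF receptor gene Igf1r passed. Probe 8570 had -0.05 ± 0.09 over both times and probe 11441 had -0.08 ± 0.12. Probe 8032 averaged 0.47 ± 0.40, with a value of 2.93 on replicate 6 and of -0.20 to 0.25 on the other 5 arrays. The insulin receptor gene Insr had 0.44 ± 0.19 (adjusted p = 0.109). Irs1, an adaptor of both receptors, fell on probe 5116 over both times (-0.68 ± 0.20, adjusted p = 0.0378) but had -0.09 ± 0.09 on probe 6825 (adjusted p = 0.456). Irs4, another adaptor of that family, rose (0.76 ± 0.17, adjusted p = 0.0317) on the 4 arrays with a value.

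Igfbp4, a further binding protein gene of bone, had 0.05 ± 0.10 over both times (adjusted p = 0.705). H19, the imprinted noncoding RNA gene next to Igf2, had 0.03 ± 0.11 on probe 17229 (adjusted p = 0.821) and 0.43 ± 0.16 on probe 18448 (adjusted p = 0.0717), and neither passed. H19, Igf2bp1 probe 17329 and the marker genes named below were chosen after their values were seen.

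**Figure D4:**
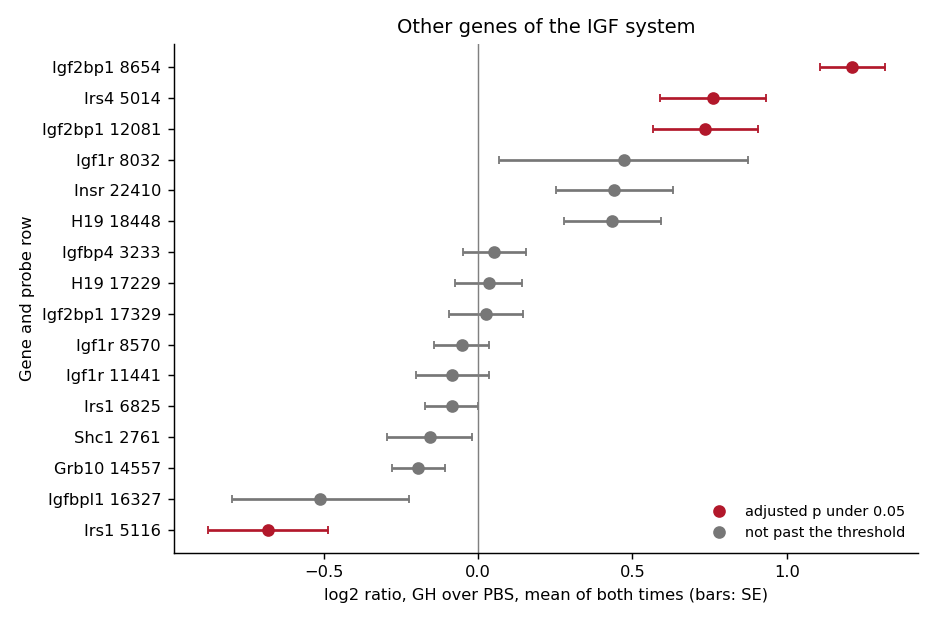
Mean log2 ratio of GH over PBS over both times (horizontal axis, bars are limma's SE) for the 16 rows of the other IGF-system genes (vertical axis), with rows past an adjusted p of 0.05 in red. Igf2bp1 probes 8654 and 12081 and Irs4 lie to the right, at 0.74 to 1.21, and Irs1 probe 5116 lies lowest, at -0.68.

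By root mean square difference of log2 ratio over the 6 arrays, among 10400 complete rows of other named genes, the rows most like Igf1 probe 9041 were those of Wwc2 (0.152, r = 0.899) and Epha2 (0.198, r = 0.771). Most like Igf2 probe 6729 were Ncoa3 (0.135, r = 0.895) and Cdc40 (0.148, r = 0.835). Most like Igfbp3 were Prag1 (0.0554, r = 0.990) and Hspa14 (0.0756, r = 0.886), and most like Igfbp5 were Sec24a (0.0805, r = 0.936) and Sar1a (0.101, r = 0.970). For Igf1 probe 1491 they were Snrpf (0.0724) and Gmnn (0.0730), for Igf1 probe 9875 Tmem183a (0.259) and Zdhhc23 (0.262), and for Igf2 probe 1525 Mib2 (0.0975) and Nfkbie (0.0990). Different probes of Igf1 had different closest rows, as did the probes of Igf2. By the highest r none of the 14 named rows came among the 2 closest, and these values describe 6 arrays that all rows share.

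Array-wide facts bear on all of these values. The arrays held 18302 to 19961 values with SDs of 0.466 on replicate 1 to 0.913 on replicate 6, and replicate 1 correlated with the others at r = 0.223 to 0.359 over rows, against 0.556 to 0.817 among the other 5. Only ratios are given, so depth and signal over background are unknown, the levels of bone markers cannot be read, and the precision is limited by the number of arrays. A lower share of a cell type and less RNA per cell cannot be told apart in such bulk RNA.

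Some marker rows of other cell types passed over both times, where 35.5% of all rows passed in either direction. The 9 measured skeletal muscle rows (of 16 listed genes) all had means above 0 at both times, though Actn3, Ckm and Myh7 each had 2 arrays below 0. Of all 19326 rows tested, 9658 had a mean above 0 at 24 hours and 9249 at 6 hours. The rows of Mb, Pygm, Actn2 and Casq1 (4 rows) rose over both times by 0.60 to 0.82, where 19.2% of all rows rose. None of the 9 rows passed at 24 hours or at 6 hours alone. The mean of the 9 rows was 0.92, 0.11 and 0.27 on replicates 4, 5 and 6 at 24 hours, against 0.13, 0.63 and 1.19 on replicates 1, 2 and 3 at 6 hours. The muscle mean and Igf2 probe 6729 were both highest on replicates 3 and 4, where Igf1 probe 9041 was lowest (0.99 on each). No link of any row to the muscle mean was tested. Of 11 neutrophil rows (8 of 15 genes) 4 fell over both times, where 16.3% of all rows fell: those of Lcn2, Cd177 and Ms4a3 and probe 507 of Mpo (-0.86). Of the other rows of Mpo, probe 20771 had -1.08 ± 0.34 (adjusted p = 0.0509 by limma) and probe 9873 had 0.04 ± 0.09. Probe 20771 did fall at 24 hours (-1.81, adjusted p = 0.0447 by limma), where probe 507 did not pass (-0.87, adjusted p = 0.127). The 11 rows had array means of -1.27, -0.55 and -0.69 at 24 hours, against -0.05, -0.51 and -0.73 at 6 hours. The chondrocyte rows of Col2a1 (-0.67) and Hapln1 (-0.95), 2 of 11 genes, both fell over both times. Of 7 osteoblast rows (6 of 15 genes) 1 rose, that of Msx2 (0.92), and the other 6 had means of -0.34 to -0.02, none past the threshold (median of the 7 rows -0.11). Of 5 osteoclast rows 1 rose over both times, that of Calcr (0.97), while 3 were below 0 without passing and the median was -0.16. At 24 hours probe 8785 of Mmp9 fell (-0.46, adjusted p = 0.0445). Of 7 erythroid rows 2 rose, probes 9738 (0.51) and 10164 (0.63) of Tfrc, and the third Tfrc row, probe 18714, had -0.14 ± 0.15 (adjusted p = 0.468). Of 6 endothelial rows Kdr fell (-0.35). Neither of the 2 adipocyte rows (2 of 10 genes) passed, with -0.17 for Fabp4 and 0.20 for Pparg. The part of these cell types in the IGF ratios was not tested.

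**Figure D5:**
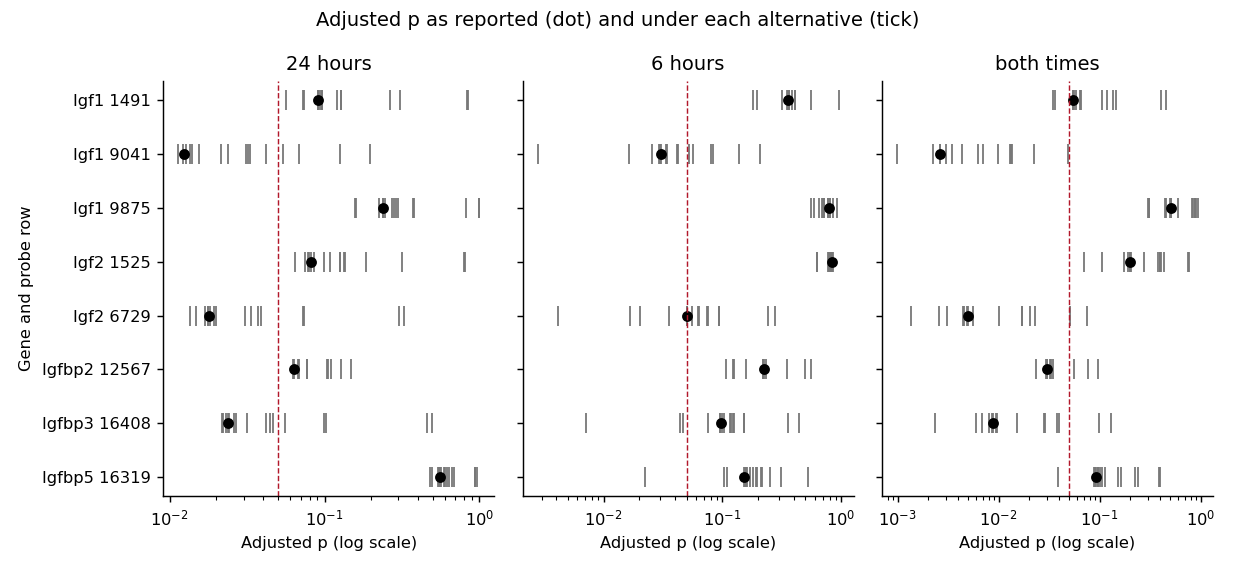
Adjusted p (horizontal axis, log scale) of each of the 8 rows (vertical axis) at 24 hours, at 6 hours and over both times. A dot gives the value as reported, a tick each limma alternative that fitted the probe row by itself, and a dashed red line marks 0.05. Averaging per gene and the sign-flip test are not drawn. Over both times all ticks of Igf1 probe 9041 lie left of the line, up to 0.0492, while those of Igf2 probe 6729, Igfbp3 and Igfbp2 fall on both sides.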

How the data were processed

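The deposited table held log2 ratios for 21446 rows on 6 arrays, and 1257 rows had no value. From the values, each is the log2 of a linear ratio with 2 decimals. How the authors corrected background and normalized, and with which software, was not given in the sources used. Time came from the labels' protocols, and treatment and replicate number from the titles.

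Of the rows, 11813 carried 1 gene symbol in the platform annotation, and 11782 of these matched the RefSeq gene table of GRCm38.p6 by gene ID with 0 symbols changed. Each row was fitted by itself with limma 3.58.1 in R 4.3.3 (lmFit with 1 mean per time, eBayes), where it had values on at least 2 arrays of each time (19326 rows). Benjamini-Hochberg adjustment ran over all of these rows in each comparison, with a threshold of 0.05, two-sided. Each pool was made from other animals, per the labels and design, so errors include variation between animals. Errors are limma's moderated standard errors. Pairs of rows of the same gene were fitted in the same way on their per-array difference. The code was tested on simulated ratios.

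The members and lists were chosen with earlier results of these data known. The genes named are all members, the listed IGF-system rows that passed in any comparison, a few receptors, adaptors and binding proteins as values, and the 2 most similar rows of each complete member row. Alternatives were centring, scaling, quantile normalization, averaging per gene, complete rows, zeros as missing, robust fitting, array weights, each time alone, the scan prefix and leaving out each replicate.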

Additional observations from a re-analysis of the deposited data

Results flagged for a closer look

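Irs1 probe 6825 lay on opposite sides of 0 at the 2 times, with log2 ratios of -0.07, -0.17 and -0.45 at 24 hours, against 0.01, 0.04 and 0.12 at 6 hours. Tested by limma, the difference of -0.29 ± 0.17 did not pass (adjusted p = 0.980).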

How the results depend on the processing

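In the alternatives that fitted probe rows or pairs by themselves and the sign-flip test (unadjusted p), 479 of 540 repeated results kept sign and threshold side. Averaging per gene, 1 of the 17 alternatives, is not in this count. Most of the 540 results had no call to lose, and 33 lost theirs. Of 3 rows called at 24 hours, 0 passed with the scan prefix as a covariate or within the prefix that holds both times, and 0 to 3 passed when 1 replicate was left out. At 24 hours 2 of the 3 passed after scaling, when Igf1 probe 9041 missed the threshold (1.15, adjusted p = 0.0541), and 2 with each time fitted alone, when Igfbp3 did (0.63, adjusted p = 0.0555). Of 1 row at 6 hours, 2 passed after centring, 3 after scaling, 3 after quantile normalization, 4 with array weights, 0 with each time fitted alone, 0 within the prefix, 0 with rows averaged per gene and 0 to 2 without 1 replicate. Of 4 rows over both times, 3 could be tested with the prefix, and 1 of these passed with it as a covariate and 1 within it. Igfbp2 was not among them. Of 3 row pairs, 1 passed with the covariate and 0 within the prefix, and 2 to 3 passed without 1 replicate. With weights, probe 1491 of Igf1 passed over both times (-0.47, adjusted p = 0.0360), as it did without replicate 1 (-0.60, adjusted p = 0.0344), and Igfbp5 passed at 6 hours (0.40, adjusted p = 0.0222). The number of all rows called at 24 hours was 4116, against 2631 with each time fitted alone, 30 with the covariate, 2374, 2114 and 979 without replicates 2, 3 and 4, and 0 without replicate 6 or within the prefix (4781 and 2595 at an unadjusted p under 0.05, by limma). At 6 hours it was 654, against 7660 with weights, 2016 after scaling, 2232 after quantile normalization, 1727 without replicate 1 and 111 without replicate 6. It was 0 at 6 hours without replicate 2, 3 or 4, with the time fitted alone or within the prefix (2212, 2318, 4465, 5007 and 4633 at an unadjusted p under 0.05). Over both times it was 6868, against 1178 with the covariate, 280 within the prefix, and 2538, 2445, 4020 and 3832 without replicates 2, 3, 4 and 6. Of all same-gene pairs 1279 were called, against 181 with the covariate, 0 within the prefix (911 at an unadjusted p under 0.05), and 461, 461, 695 and 713 without replicates 2, 3, 4 and 6.

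Signs turned, or values reached 0, only in results that did not pass. The time difference of Igf2 probe 6729 was -0.038 after scaling, -0.068 after quantile normalization, and -0.065 (without replicate 1) to 0.30 (without replicate 3) with 1 replicate left out, and -0.025 without replicate 4. Igf2 probe 1525 at 6 hours had 0.027 with weights and ranged over -0.13 (without replicate 3) to 0.070 (without replicate 1). With the prefix, as a covariate or within it, Igf1 probe 9875 had 0 at 24 hours and 0.081 over both times, and the time difference was 0.052 for Igf1 probe 1491 and 0.099 for probe 9041. With 1 replicate left out, Igf1 probe 9875 ranged over -0.12 (without replicate 1) to 0.48 (without replicate 3) at 6 hours, and over -0.37 (without replicate 5) to 0.022 (without replicate 6) over both times. No paired analysis was possible because the 2 times share no replicate numbers. The cause of these changes was not tested.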
